A study of Homo sapiens with 3 samples.

Results

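The peaks described here lie at the upstream ends of protein-coding genes, where transcription of a gene begins. They come from an eCLIP experiment, which sequences the RNA fragments that UV light has fixed to a protein of interest. LS174T cells were used, from a colon adenocarcinoma of a human, which keep features of mucus-secreting goblet cells, and all of them carried mouse Pxr with an HA tag, transfected for 24 h before irradiation at 254 nm. The groups by the labels were 2 replicate immunoprecipitates of mouse PXR and 1 input, and they share the line, the transfected receptor and the irradiation. The deposited data analysed here are 1 peak list, with peaks called apart for the plus and the minus strand of the genome, so no value below has a spread between libraries, and depth per library is unknown. The protocol names antibodies to PXR and HA and a control IgG, without saying which served where.

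A peak was taken when its centre lay in the span of exactly 1 protein-coding gene of at least 5000 bases and in no other gene, on chromosomes 1 to 22 or X, and within 1000 bases of the upstream end. The upstream end was read from the strand of the peak: the lower end of the gene for a plus-strand peak and the higher end for a minus-strand peak. This gave 3789 peaks in 3619 genes, among the 21031 peaks in the list and 15838 whose centre lay in exactly 1 such gene. They were thus 23.9% of the 15838 (Wilson interval 23.3 to 24.6%). The other 12049 peaks comprised 2078 within 1000 bases of the downstream end and 9971 in the interior. A peak lying mainly before the gene end could not enter, since its centre had to be inside the gene. Just inside the limit lay the centres at TCFL5 (1000 bases, 14 reads), ZNF91 (999 bases, 16 reads) and ASAH1 (999 bases, 20 reads). Just outside it lay those at PPIB and SUCO (1002 bases each, 32 and 18 reads) and at GOLGA4 (1004 bases, 18 reads).

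RNA polymerase II starts a transcript at the upstream end of its gene, and the first exon with its 5′ untranslated leader lies there, followed in most genes by a long first intron. The nascent RNA receives its cap at this end, and in cytosolic mRNA the leader is where ribosomal subunits are loaded. PXR, encoded by NR1I2 in humans, is a nuclear receptor that senses drugs and bile acids and is best known for binding DNA near the genes of drug metabolism. Exons were not used here, so a peak near the upstream end is not assigned to a leader, a first exon or a first intron.

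Sequences around the annotated start are shown first, because nearness to the upstream end is what the peaks were chosen for. They are RefSeq promoters of GRCh38.p14 (coordinates as in hg38), from 100 bases before the annotated start to the first 30 bases after it, written 5′ to 3′ on the strand of the gene. The first set belongs to the 5 deepest peaks on the gene strand whose gene has its annotated start at the end of the gene span and whose promoter was in the table and could be shown. Capitals mark exact matches to any of the motifs described with the promoters, on either strand.
SYCP2L, chr6:10886952-10887081, plus strand: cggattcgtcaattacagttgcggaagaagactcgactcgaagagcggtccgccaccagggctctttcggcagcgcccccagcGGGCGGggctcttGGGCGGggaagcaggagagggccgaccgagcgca
ATP1B1, chr1:169106590-169106719, plus strand: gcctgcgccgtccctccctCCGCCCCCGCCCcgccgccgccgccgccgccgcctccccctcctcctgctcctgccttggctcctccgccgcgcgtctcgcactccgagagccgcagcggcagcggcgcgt
SLC7A5, chr16:87869478-87869607, minus strand: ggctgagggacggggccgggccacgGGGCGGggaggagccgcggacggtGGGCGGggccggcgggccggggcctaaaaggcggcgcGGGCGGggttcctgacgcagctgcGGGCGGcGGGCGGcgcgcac
RBCK1, chr20:408199-408328, plus strand: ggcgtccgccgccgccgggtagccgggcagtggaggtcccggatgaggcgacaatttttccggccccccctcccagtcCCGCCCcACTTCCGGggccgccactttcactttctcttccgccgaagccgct
CEMIP, chr15:80779270-80779399, plus strand: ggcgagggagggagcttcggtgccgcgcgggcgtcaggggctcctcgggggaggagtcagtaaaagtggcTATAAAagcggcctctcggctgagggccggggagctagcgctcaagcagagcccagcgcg
SLC7A5 holds 5 matches to GGGCGG, the core of the GC box bound by SP1 and its relatives, and ATP1B1 and SYCP2L hold 2 each. RBCK1 holds 1 such match and 1 to CCGGAAGT, the binding letters of ETS factors. CEMIP holds TATAAA, the TATA box. The ATP1B1 and RBCK1 windows lie inside the peak, and the SYCP2L window ends before its peak begins.

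The second set belongs to the 5 deepest peaks, chosen in the same way, whose summit lay within 50 bases of the gene end, so that the window and the peak overlap. Capitals mark the bases that the peak covers.
LAD1, chr1:201399295-201399424, minus strand: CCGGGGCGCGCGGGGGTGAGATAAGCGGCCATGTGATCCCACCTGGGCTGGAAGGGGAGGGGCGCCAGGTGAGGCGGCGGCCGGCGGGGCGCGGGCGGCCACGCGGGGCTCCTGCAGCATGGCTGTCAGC
GPR12, chr13:26760757-26760886, minus strand: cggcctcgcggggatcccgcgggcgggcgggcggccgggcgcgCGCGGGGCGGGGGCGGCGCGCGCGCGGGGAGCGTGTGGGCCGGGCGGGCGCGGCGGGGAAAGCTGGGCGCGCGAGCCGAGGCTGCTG
PANK3, chr5:168579339-168579468, minus strand: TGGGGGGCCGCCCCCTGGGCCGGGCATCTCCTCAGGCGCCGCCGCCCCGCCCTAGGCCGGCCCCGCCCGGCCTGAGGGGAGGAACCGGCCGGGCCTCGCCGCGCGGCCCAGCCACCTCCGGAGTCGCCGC
POTEF, chr2:130129193-130129322, minus strand: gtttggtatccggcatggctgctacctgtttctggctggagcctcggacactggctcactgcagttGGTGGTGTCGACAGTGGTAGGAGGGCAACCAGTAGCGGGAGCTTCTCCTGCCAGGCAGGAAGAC
SETD7, chr4:139556190-139556319, minus strand: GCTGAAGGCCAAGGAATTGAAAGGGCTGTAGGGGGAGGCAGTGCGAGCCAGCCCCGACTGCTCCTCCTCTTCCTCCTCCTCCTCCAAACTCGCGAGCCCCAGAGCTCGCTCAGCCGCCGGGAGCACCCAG
At LAD1, PANK3 and SETD7 the peak covered the whole window of 130 bases. At GPR12 it covered 87 bases and at POTEF 64. POTEF belongs to a family of near-identical genes, between which aligned reads could be split. GC made up between 60.0% (POTEF) and 89.2% (GPR12) of the 130 bases in this set. Summits before base 50 of the gene, those outside it included, numbered 13 of 3789 (0.343%, Wilson interval 0.201 to 0.586%). That share is partly set by the choice of centres inside the gene.

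The choice required a centre inside the gene and within 1000 bases of its end, so edges and summits inside the gene are partly set by it. Within that choice, upstream-end peaks began mostly within the first 100 bases of the gene and crested about 250 bases in. The upstream edge lay at a median of 91 bases from the gene end (95% interval from the order statistics of the list, 88.0 to 94.0), with quartiles of 51.0 and 191 bases. Of the 3789 peaks, 1948 began in bases 0 to 99 (51.4%) and 820 in bases 100 to under 200 (21.6%). Only 106 began before the gene end (2.80%, Wilson interval 2.32 to 3.37%). Within the first 100 bases, 176 edges lay before base 20, 632 between bases 20 and 49 and 1140 between bases 50 and 99. The summit lay at a median of 246 bases (interval 241 to 251), and 2181 summits (57.6%) fell from base 150 to under 300. The narrowest peak of the list was 200 bases wide, taken here as the length given to each read by the peak caller. Edges and summits depend on that setting, which the notes do not state.

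**Figure D1:**
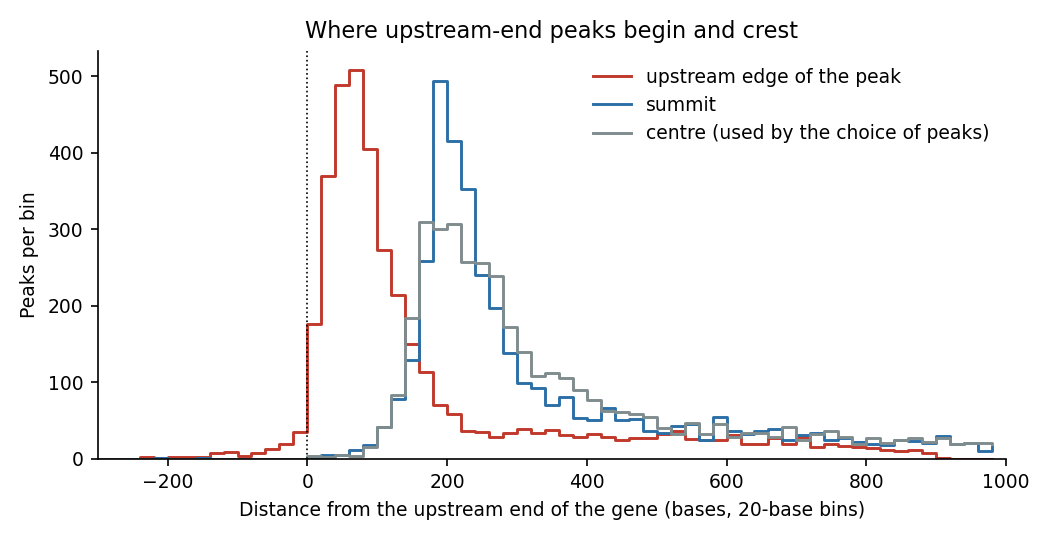
Number of upstream-end peaks (vertical axis) by distance from the upstream end of the gene in 20-base bins (horizontal axis), for the upstream edge, the summit and the centre of 3789 peaks. The edges gather between 0 and 200 bases with a median of 91, and the summits have a median of 246 bases.

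Peak density, a description since distance chose the peaks, was highest at the upstream end among the stretches compared. Over the 6568 coding genes with a peak, the first 1000 bases held 0.577 peaks per kb, against 0.316 in the last 1000 bases, 0.0830 in the second 1000 bases and 0.0200 in the interior. The interior includes the introns. Centres were densest from 200 to under 300 bases from the upstream end, with 1231 peaks, and 921 lay from 100 to under 200 bases. Measured from the downstream end, the same bins held 307 peaks each. From base 900 to under 1000 the counts were 108 from the upstream and 167 from the downstream end. No test was made of these differences, since peaks of 1 list are not replicates.

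**Figure D2:**
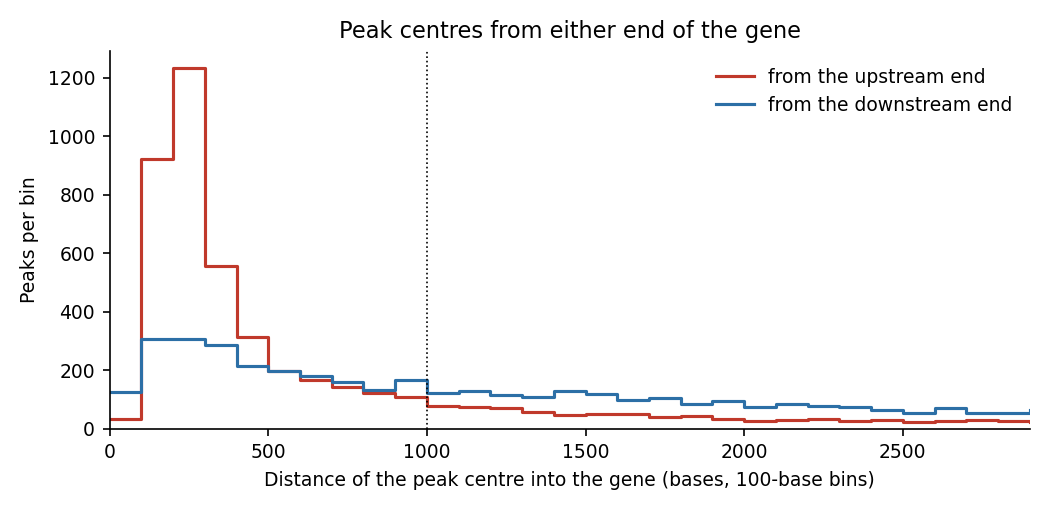
Number of peak centres (vertical axis) per 100-base bin of distance into the gene (horizontal axis), measured from the upstream end and from the downstream end of the 6568 genes with a peak. The dotted line is the 1000-base limit, and the upstream curve reaches 1231 peaks at 200 to under 300 bases, where the downstream curve has 307.

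Gene strand was not read in choosing the peaks, but the upstream end was taken from the strand of the peak. A peak antisense to an annotated gene start could therefore not enter and was counted at a downstream end, so the strand shares are partly set by the choice and are given as a description. The promoter table gave the strand of the gene for 3137 of the 3789 peaks, and 3128 matched (99.7%, Wilson interval 99.5 to 99.8%). Among all other peaks in 1 coding gene, 9792 of 10003 matched (97.9%, 97.6 to 98.2%). The 9 upstream-end peaks on the opposite strand had a median of 12 reads, and 6 of them were at most 202 bases wide. For those 9, the end of the gene called upstream by the peak is the downstream end of the annotated gene. They lay at NGB (neuroglobin, 46 reads), PTOV1 (45), MXRA8 (31), COX20 (21), PLEKHM2 (12), ZNF195 (8), PAEP (7), IL17RC (6) and AP3S1 (5), and are named because they were the exceptions. At NGB 46 of 48 reads in the surrounding 10 kb fell under a peak of 200 bases. An opposite-strand peak centre within 500 bases stood beside 47 of the 3789 peaks (1.24%).

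The promoter table also gives an annotated start for each gene. On the gene strand, 2829 of 3128 upstream-end peaks belonged to genes whose table start is the end of the gene span (90.4%), and 3023 centres (96.6%, Wilson interval 96.0 to 97.2%) lay within 1000 bases downstream of the table start. Where the table start is the end of the span, the choice of peaks fixed this. In the interior class, 265 of 8085 gene-strand peaks lay within 1000 bases downstream of a table start inside the gene (3.28%). Of those 265, 250 were in genes without an upstream-end peak. Their centres lay at a median of 269 bases from the table start, and their median fold was 6.82 (interval 6.49 to 7.28), against 5.46 (5.42 to 5.51) for the other 7820. The background of these peaks had a median of 79 reads in 10 kb, against 152.5 for the others.

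Upstream-end peaks had a higher fold than the rest at a like depth. The fold is the authors' ratio: summit reads plus 1, over background plus 1. Recovering both terms from the deposited fold and −log10 p showed that the background was the number of reads in 10 kb scaled to 200 bases, except in 32 of the 3789 peaks, where it was a common level. The recovery took the 10 kb count to include the reads of the peak itself and used no value of the input, so a fold is read here as concentration of reads within 10 kb and not as enrichment over input. The median fold was 7.68 at upstream ends (interval 7.52 to 7.78), against 5.50 in the other peaks (5.47 to 5.56), 5.64 at downstream ends and 5.48 in the interior. A fold of 10 or more was reached by 1037 upstream-end peaks (27.4%, Wilson interval 26.0 to 28.8%), where 10.6% of all peaks in 1 coding gene reached it. Among the others 645 did (5.35%). The median depth at the summit was 20 reads at upstream ends and 22 in the others. The background differed more: a median of 76 reads in 10 kb at upstream ends (interval 74 to 79), against 150 in the others (147 to 152). A window of 10 kb around the upstream end also spans bases before the gene, and the part of this in the fold was not tested.

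Between depth classes the gap in fold to the interior widened, under a ceiling that the formula sets. Because the 10 kb count includes the reads of the peak, the highest possible fold rises with depth. With all reads of the 10 kb at the summit, the fold was 10.5 at 12 reads (PLEKHM2) and 27.5 at 59 reads (PHF21B). The part of this ceiling in the widening was not tested. At 10 to 19 reads the median fold was 7.0 at upstream ends (1472 peaks) and 5.63 in the interior (3503 peaks). At 20 to 49 reads it was 9.29, against 5.34. At 50 to 99 reads it was 13.2 at 331 upstream ends (interval 12.6 to 14.1), against 5.20 in 984 interior peaks (5.07 to 5.45). With 100 reads or more it was 14.1 in 116 upstream-end peaks (12.03 to 15.8), 7.94 in 75 downstream-end peaks (6.39 to 9.17) and 5.90 in 330 interior peaks (5.47 to 6.37). Those 116 were 3.06% of upstream-end peaks, where 3.29% of all peaks in 1 coding gene reached 100 reads. Under 10 reads the medians were 5.67 at upstream ends and 5.36 in the interior. At downstream ends the median fold rose as well, over 5.36, 5.45, 5.62, 6.91 and 7.94 from the shallowest class to the deepest. The upstream edge lay nearer to the gene end in deeper peaks, with medians of 152.5, 101.5, 82, 60 and 53.5 bases from the shallowest class to the deepest. Width rose over the same classes, with medians of 205, 259, 339.5, 399 and 429.5 bases. A wider peak reaches farther from its centre, and the part of width in the shift of the edge was not tested.

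**Figure D3:**
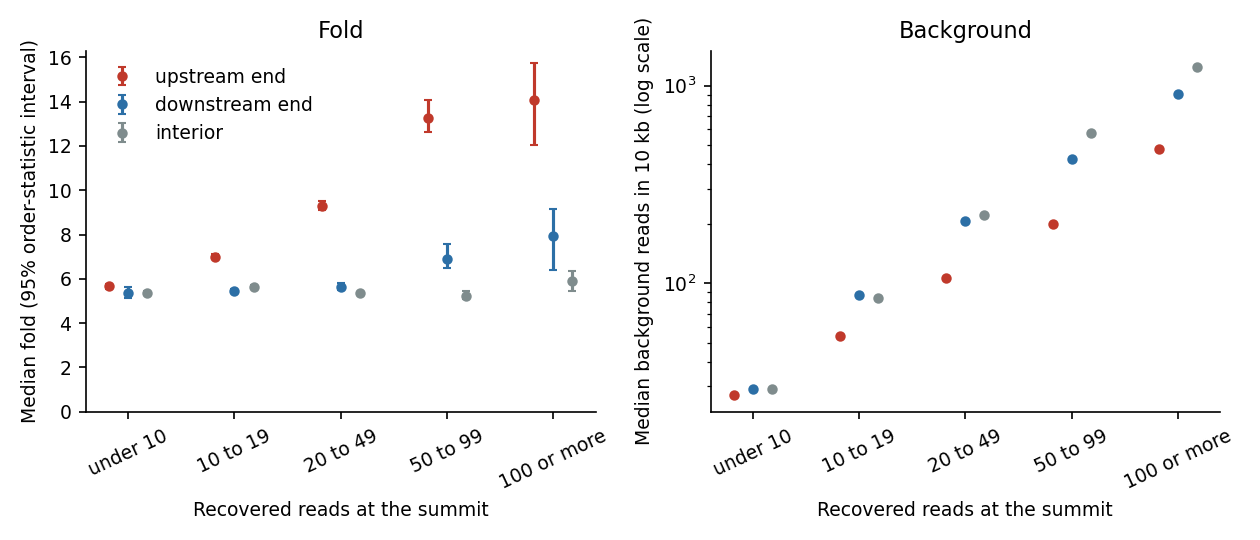
Left, median fold with its 95% order-statistic interval, and right, median background reads in 10 kb on a log axis, by class of recovered summit reads (horizontal axes), for upstream-end, downstream-end and interior peaks. Upstream-end folds run from 5.67 under 10 reads to 14.1 at 100 reads or more, and at 20 to 49 reads the background is 106.5 reads at upstream ends, 206 at downstream ends and 221 in the interior.

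In width upstream-end peaks stood between the other classes. Their median width was 294 bases (interval 289 to 299), against 331 at downstream ends (319 to 340) and 246 in the interior (243 to 248). Peaks of 200 to 202 bases made up 439 upstream-end peaks (11.6%), where the share over all peaks in 1 coding gene was 18.1%. At downstream ends they made up 12.4% and in the interior 21.8%. The widest peaks lay at CEMIP (1775 bases), LIMD1 (1710), the corepressor gene IRF2BP2 (1665), the kinase genes WNK1 (1660) and CDK12 (1602). At CDK12, which phosphorylates RNA polymerase II, the summit lay 1554 bases from the gene end.

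The 12 deepest upstream-end peaks ranged from 263 to 12385 reads. At SYCP2L, for a synaptonemal complex protein, a peak of 200 bases at chr6:10887604-10887803 held 12385 reads, of 12392 in its 10 kb, at a fold of 49.8. ATP1B1, the beta subunit of the sodium pump, followed with 574 reads (exact Poisson interval 528 to 623) at chr1:169106361-169107167. It began 329 bases before the gene end and had its summit 146 bases before it. VEGFA, the vascular growth factor with a long leader known for internal ribosome entry, had 512 reads (469 to 558) at chr6:43770221-43771424, over 1204 bases that started 10 bases into the gene. Another peak of VEGFA was deeper, with 561 reads. ONECUT3, for a homeodomain transcription factor, had 428 reads but a fold of only 5.12, in a 10 kb with 4136 reads.

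PABPC1, the cytoplasmic poly(A)-binding protein whose own leader is known to hold an adenine-rich autoregulatory stretch, had 376 reads (339 to 416) at a fold of 16.4. The amino acid transporter gene SLC7A5 had 368 reads (331 to 408) at a fold of 20.6, starting 27 bases in at the minus-strand end of chr16:87868888-87869480. RBCK1, of the linear ubiquitin ligase complex, had 312 reads, and CEMIP, for a hyaluronan-degrading protein, had 307. PYGB, a glycogen phosphorylase, had 282 reads, NSMF had 277, the chloride cotransporter gene SLC12A2 had 268 and the integrin gene ITGA6 had 263. In 9 of these 12 genes the upstream-end peak was deeper than any other peak of the gene. At VEGFA and NSMF another was deeper, with 561 and 476 reads, and SYCP2L had no other.

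**Figure D4:**
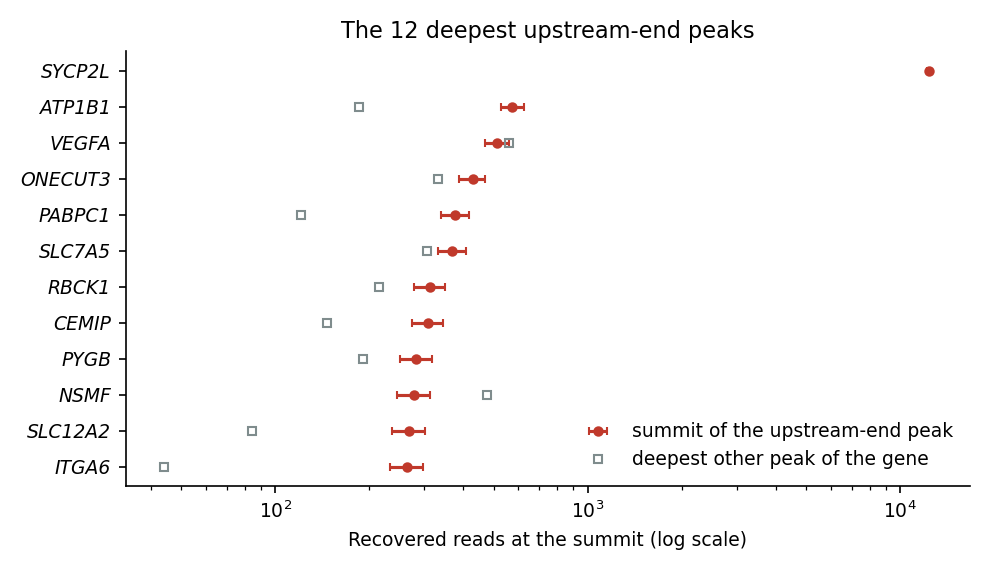
Recovered reads at the summit (log axis) of the 12 deepest upstream-end peaks with exact Poisson intervals, and of the deepest other peak of each gene where there was one. SYCP2L stands at 12385 reads, and the other 11 lie between 263 and 574 reads.

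The 10 highest folds included 4 peaks that held nearly all reads of their 10 kb. Besides SYCP2L, OTOP2 (a proton channel, 207 reads of 208 in 10 kb, fold 40.3), RASGEF1C (156 of 157, fold 37.9) and PHF21B (59 of 59, fold 27.5) had such a peak, 202 to 204 bases wide. The endomembrane proteins TM9SF3 and TM9SF2 had folds of 28.6 (253 reads) and 27.4 (95 reads). PPP1CC, a catalytic subunit of protein phosphatase 1, had a fold of 27.7 with 129 reads, where its deepest other peak had 29. RPS20, a ribosomal protein of the small subunit, had a fold of 27.2 with 171 reads starting 14 bases into the gene. OAZ2, an ornithine decarboxylase antizyme, had 26.9 and MANBAL 26.7.

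A further peak was found in 2290 of the 3619 genes with an upstream-end peak (63.3%, Wilson interval 61.7 to 64.8%), but in 43.9% of 2289 genes, a minority, where peaks at or above the median −log10 q alone were counted. In the full list the further peaks were interior ones in 1993 genes and downstream-end ones in 876. The other 1329 genes had peaks at the upstream end alone. Of all 6568 coding genes with a peak, 55.1% had one at the upstream end. Over all 2290 genes with a further peak, the deepest summit was at the upstream end in 1171 (51.1%, 49.1 to 53.2%), elsewhere in 1039 (45.4%), and 80 were equal. Among 933 genes with exactly 1 upstream-end and 1 further peak, the upstream-end summit was deeper in 568 (60.9%, 57.7 to 64.0%), the other in 323, and 42 were equal. The median was 19 reads at the upstream end and 16 at the other peak. The fold was higher at the upstream end in 733 of these genes (78.6%, 75.8 to 81.1%), and the background was lower there in 626 (67.1%).

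A group of 170 genes had 2 upstream-end peaks, and none had 3 or more. In these genes the nearer centre lay at a median of 234 bases with 24 reads, and the farther at 762 bases with 19 reads. The deepest pair was at ONECUT3, with 428 and 144 reads, the second at a fold of only 1.67 in a 10 kb with 4304 reads. TPT1, for the translationally controlled tumor protein, had 133 reads in a peak starting 13 bases in and 168 in one starting 412 bases in. ATP5F1B, the beta subunit of ATP synthase, had 147 and 121 reads at centres of 157 and 793 bases. SRSF1, a splicing factor, had 124 and 104 reads at 179 and 901 bases, and RPS20 had 171 and 46.

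Upstream-end peaks were found over all gene lengths. They stood at 375 of 2495 coding genes of 5 to under 10 kb (15.0%), 1171 of 4732 of 20 to under 50 kb (24.7%) and 745 of 3351 of 100 kb or more (22.2%). Where the strand is known, base 250 of the gene lay in no other gene in 10834 of 13482 coding genes (80.4%), and 2931 of these had an upstream-end peak (27.1%). Overlap was read at base 250 alone, and a peak whose centre lay in a second gene could not enter. Across chromosomes the share of upstream-end peaks ran from 17.2% on chromosome 19 (222 of 1291) to 32.0% on chromosome 18 (72 of 225).

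Promoters of genes with an upstream-end peak were rich in GC. The table held 3003 of the 3619 genes, each with 250 bases before the start and 50 after. Their median GC content was 67.3% (interval 67.0 to 67.7%), against 65.0% in 2480 genes with other peaks alone and 61.0% in 7999 genes with none. The ratio of observed to expected CpG had a median of 0.887, against 0.829 and 0.683. GGGCGG was present in 77.7% (Wilson interval 76.2 to 79.1%), against 68.8% of genes with other peaks and 60.9% of all 13482 coding promoters. TATAAA stood in 4.43% (3.75 to 5.22%), against 5.56% and 7.71%. CCGGAAGT stood in 9.42%, against 8.59% and 6.52%, and the palindromic NRF1 motif in 2.96%, against 2.70% and 1.95%. CCAAT, bound by NF-Y, stood in 36.0%, against 37.3% and 35.8%. AGGTCA, a letter group recognised by nuclear receptors that include PXR, stood in 8.56% (7.61 to 9.61%), against 10.2% and 10.97%. Matches were counted on both strands in promoters of equal length, no motif contains another, and a match is not a bound site. The shares were not adjusted for GC content, which differed between the sets, or for levels of expression. Genes with GGGCGG had peaks starting at a median of 87 bases (85 to 91), against 110 bases (102 to 118) in those without. Their peaks were also deeper, with a median of 20 reads (19 to 21) against 17 (16 to 19). The part of depth in the difference of starts was not tested.

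The gene lists describe which kinds of coding gene had an upstream-end peak, out of their members of at least 5000 bases. Of all 16810 coding genes of that length, 39.1% had any peak and 21.5% had one at the upstream end. The median upstream-end peak had 20 reads and a fold of 7.68. Among genes with any peak, 55.1% had an upstream-end peak. In the lists with an upstream-end peak, that share ran from 40.0% (PXR targets) to 85.7% (endoplasmic reticulum chaperones). It was 44.4% in immediate early genes, 47.1% in glucose metabolism and 52.4% in goblet and colon epithelial markers. Chromatin modifiers had 53.8% and cytosolic ribosomal proteins 54.3%. Nuclear receptors and cholesterol and fatty acid synthesis did not exceed 55.1% either. It was higher in splicing regulators (63.0%), translation factors (67.7%), cell cycle and replication (68.2%) and cytosolic chaperones. Levels of expression were not used, so how often a list appears cannot be told apart from how much of its RNA the cells hold. Chaperones of the endoplasmic reticulum had one in 12 of 14 genes (85.7%, Wilson interval 60.1 to 96.0%), with a median of 58.5 reads and a fold of 11.3. HSPA5, the chaperone BiP with a well-studied leader, had 158 reads. P4HB, a protein disulfide isomerase, had 150, the lectin chaperone gene CALR had 139 and HSP90B1 had 101. PDIA4 had the highest fold of the list, 19.9 with 69 reads, and began 118 bases before the gene end. Cytosolic chaperones had one in 9 of 16 genes, with CCT6A (58 reads), HSPA4 (53) and TCP1 (46) deepest.

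Translation factors had an upstream-end peak in 21 of 35 genes (60.0%, 43.6 to 74.4%), with a median of 35 reads. After PABPC1, EIF4G2, which starts cap-independent translation, had 177 reads at a fold of 13.0. The elongation factor gene EEF1A1 had 127 reads, and EIF3F had 48 at a fold of 18.3. Splicing regulators had one in 17 of 28 genes (60.7%), with a median of 86 reads, the highest of the lists that had any. HNRNPU had 243 reads, HNRNPAB 196, HNRNPD 147 at a fold of 16.7, and SRSF9 97 at 18.2. Cytosolic ribosomal protein genes had one in 19 of 46 (41.3%), with a median of 74 reads and a fold of 10.1. Their peaks started at a median of 278.5 bases, against 91 for all upstream-end peaks. RPL13 had 195 reads starting at base 150, RPL28 had 162 at base 440 and RPS23 had 151 at base 510, whereas RPS20 and RPL38 began 14 and 21 bases in. Ribosomal protein genes have near-identical pseudogenes, so their reads are uncertain.

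Genes of growth and chromatin had upstream-end peaks as well. Among genes with any peak, chromatin modifiers and immediate early genes did not exceed the general share of 55.1%, while cell cycle and replication did. Cell cycle and replication genes had one in 15 of 24 (62.5%), led by cyclin D1 (CCND1, 174 reads), RRM2 (45) and MKI67 (43 at a fold of 14.4), with a median of 21 reads. With peaks at or above the median −log10 q alone, 7 of the 24 had one. Chromatin modifiers had one in 14 of 33 (42.4%), among them the remodeller subunit SMARCC1 (89 reads at a fold of 21.5) and CHD2 (61). Immediate early genes had one in 4 of 12, at KLF6 (123 reads), FOSB (73), BTG1 (61) and FOSL1 (34).

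Among metabolic genes the shares were lower than in the chaperones, with no test made. Glucose metabolism had an upstream-end peak in 8 of 20 genes (40.0%, 21.9 to 61.3%), with the glucose transporter gene SLC2A1 at 116 reads and a fold of 17.3, ENO1 at 49 reads and PFKL at 48. Cholesterol and fatty acid synthesis had one in 11 of 25 (44.0%), with SCD, the stearoyl-CoA desaturase, and the regulator SREBF1 at 106 reads each. Drug metabolism genes known as PXR targets had any peak in 5 of 20 and an upstream-end peak in 2 of 20 (10.0%, 2.79 to 30.1%). These were ABCC3 (21 reads at a fold of 3.72) and CES2 (20 reads at 6.25). Nuclear receptors and cofactors had an upstream-end peak in 10 of 30 (33.3%), with NR2F6 at 83 reads and the corepressor NCOR1 at 63. NR1I2 itself had 8 peaks but none at the upstream end: its nearest plus-strand centre lay 25382 bases from that end. The cells carried transfected mouse Pxr and the list is on hg38. Whether the NR1I2 peaks hold reads of the transfected RNA was not tested.

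Goblet and colon epithelial markers had an upstream-end peak in 11 of 26 genes (42.3%, 25.5 to 61.1%). EPCAM, for epithelial adhesion, reached a fold of 19.7 with 220 reads, the galectin gene LGALS4 had 80 and 62 in a pair of peaks, and the intestinal transcription factor gene CDX1 had 52. Of the markers of other tissues, 0 of 17 hepatocyte genes had an upstream-end peak (Wilson interval up to 18.4%). Nor did any of 12 blood and immune genes (up to 24.2%) or 18 fibroblast and endothelial genes (up to 17.6%). These lists had almost no peak anywhere: any peak was found in 0, 0 and 1 of their genes, in that order.

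**Figure D5:**
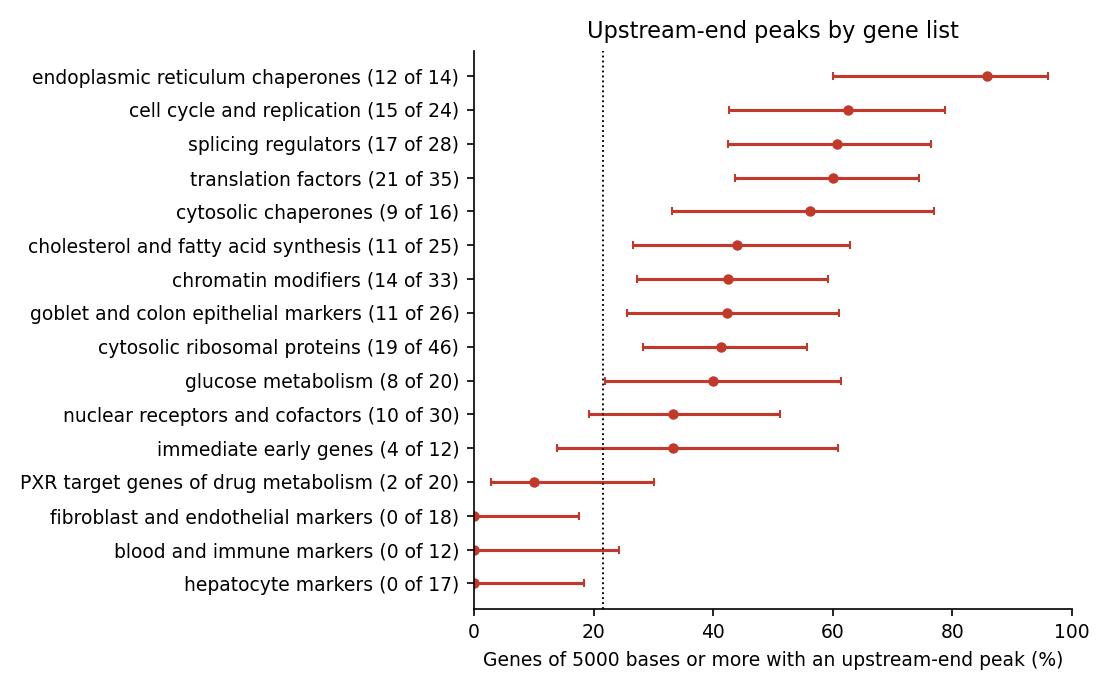
Share of the genes of each list of at least 5000 bases that had an upstream-end peak (horizontal axis, percent, with Wilson 95% intervals), with counts beside each name. The dotted line is the 21.5% of all 16810 coding genes, and the lists run from 0 of 17 hepatocyte markers to 12 of 14 endoplasmic reticulum chaperones.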

How the data were processed

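The list was made by the authors with MACS2 on hg38 after cutadapt and BWA, per the submitters' processing notes, which give no versions or settings. The deposited columns used were the fold (a ratio), the −log10 p and −log10 q (negative log10 of p-values and q-values), the score, which equalled the integer part of 10 times the deposited −log10 q in all 21031 peaks, and the summit's distance from the peak start. Whether the list pools both replicates is not stated there.

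Reads at a summit (k) and the background (b) were recovered from the authors' fold, (k + 1)/(b + 1), and their −log10 p, taken as the upper Poisson tail at k. In 21028 peaks, all upstream-end ones included, some whole k gave that p to a tolerance of 0.0001 and a further 1e-05 of its size. On 914 peaks simulated with these same formulas the recovery returned the planted reads in 100% of them. That checks the arithmetic, and cannot show that the deposited columns follow the formulas. Positions were set against the RefSeq gene table of GRCh38.p14, 1-based. Gene strand and sequence came from the RefSeq promoter table, and no sequence of chromosome 8 is printed. No test was made, since 1 list has no replicates. Wilson, Poisson and order-statistic intervals are at 95% and cover counting error only, and PCR copies are not independent molecules.

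The members and gene lists were chosen with earlier results of these data known. Named are the 12 deepest peaks, the 10 highest folds, the 5 widest, the 5 deepest genes with 2 peaks, the 3 deepest peaks per list, NR1I2 and the peaks at the limit of 1000 bases; other genes of a list were named after their values were seen. Some genes that this rule names are not reported here. Python 3.11.15, numpy 2.4.6, scipy 1.17.1 and pandas 2.3.3 were used.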

Additional observations from a re-analysis of the deposited data

How the results depend on the processing

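Of 59 values recomputed under alternatives, 42 stayed within the interval of the reported value, or for counts within 1.5 times of it. Some of the 42 could hardly move: the promoter values for genes with a peak on the gene strand used 2997 of the 3003 genes. With peaks at or above the median −log10 q alone, upstream-end peaks numbered 2322 in 2289 genes, with a median fold of 9.52, 27 reads, a width of 337 bases, a gene on the same strand in 99.9% and a further peak in 43.9% of genes, where the full list has 63.3%. At that cutoff 118 genes of the lists had an upstream-end peak, against 153 in the full list. Cell cycle and replication went from 15 genes to 7 and translation factors from 21 to 13. Splicing regulators went from 17 to 16, and endoplasmic reticulum chaperones stayed at 12. Without peaks of 200 to 202 bases the medians were a fold of 8.11, 21 reads and 316 bases, with 99.9% on the gene strand and a further peak in 57.9%. With 10 or more summit reads, chosen after seeing the data, they were 8.11, 21 reads and 311 bases. Within 500 bases the median fold was 7.94, and within 2000 bases 7.39. Taking the start from the promoter table and requiring the gene strand, also chosen after seeing the data, gave 3289 peaks in 3151 genes. That setting also drops genes absent from the table, and 652 upstream-end peaks have no gene strand there. No paired analysis was possible because the list holds no values of single libraries, and leaving out a replicate was not possible for the same reason. Upstream-end summits had as few as 4 reads, so a gene without a peak may be too shallow.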
